A study of Rattus norvegicus with 12 samples.

Results

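The transcripts described here are those of the signalling kinases of embryonic rat brain whose array symbols begin with the names of protein kinase A, C, D and G, AMP-activated kinase, calcium/calmodulin-dependent kinases, casein kinases, the mitogen-activated protein kinase cascade, Akt and Gsk3. They were chosen by symbol alone, with no measured value in the rule, although earlier results of these data were known. The rule took in 94 genes on 95 probes, out of 22226 probes on the array. Current symbols were held by 78 of them, and 16 carried older ones that are given here by their current names, such as Prkcb1 (Prkcb), Prkcm (Prkd1) and Map2k1ip1 (Lamtor3). The pattern also took in 10 scaffolds and binding partners and 6 other proteins, some of which are not kinases. A further 27 probes have current names of these families but carried locus names in the file, among them Prkacb, and they enter only where a paralog is compared and for Prkag3.

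RNA was recovered from lysates of whole brains of Sprague-Dawley rat embryos (E17-E18, although the tissue label reads P18) with a rabbit polyclonal antibody against Staufen2 (6 arrays) or with preimmune antibody (6 arrays), both on protein A-sepharose. Staufen2 binds double-stranded RNA and travels in RNA granules of neurons, and the comparison asks which transcripts its particles hold. Amplified and biotin-labelled RNA was measured on Illumina bead arrays. No total lysate RNA was analysed here, the animals behind each array are not given, and each p-value rests on the spread between arrays of a group, part of which may be technical. Replicate 0 stands for the Staufen2 array that has no number in its label. Column codes of the detection values form 2 runs of consecutive numbers, of unknown meaning, the first with 4 arrays of each group and the second with 2.

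Protein kinases of these families relay second messengers and growth signals. Protein kinase A answers to cyclic AMP, protein kinase C to diacylglycerol and in part calcium, and the calmodulin-dependent kinases to calcium bound to calmodulin, while the mitogen-activated kinases stand at the end of a chain in which a MAP3K phosphorylates a MAP2K and this a MAPK. In neurons several of them act at synapses and in growing dendrites and axons, and the mRNA of Camk2a is a textbook case of a transcript carried into dendrites.

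Staufen2 immunoprecipitates gave more signal than preimmune ones, and this limits every value below. Between 45.4% and 48.8% of probes were detected (detection p under 0.05) on the Staufen2 arrays and between 11.6% and 34.8% on the preimmune arrays, with preimmune replicates 6 and 2 the lowest. Array backgrounds, read as the signal of probes at a detection p near 0.5, lay between 66.7 and 86.6. All 9 neuronal and 7 progenitor markers on the array were detected on the 6 Staufen2 arrays. Their summed raw signals were 23212 to 34604 and 7250.2 to 16195 there, against 822 to 6162 and 691 to 4591 on preimmune arrays. Red blood cell markers, 4 of 5 detected on all 6, summed to 3032 to 16462 against 516 to 6867, and their part in the results was not tested. Cdh5 and Tek of endothelium, Mag of oligodendrocytes and Afp of liver were detected on none of the Staufen2 arrays. Of 3 endothelial, 3 oligodendrocyte, 4 microglial and 2 liver markers on the array, 1 of each list was detected on all 6. Endothelial markers summed to 457 to 1120 against 204 to 673, and liver markers to 313 to 1377 against 131 to 1145. In RNA from whole tissue the number of cells of a type and the RNA in each cannot be told apart.

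The values are given on a pair of scales. On the first, signals were background-corrected and quantile normalized, limma was fitted over the 9136 probes detected on 6 or more arrays, and a log2 difference is Staufen2 minus preimmune relative to the rest of the array. On the second, called signal over background, the array's background was subtracted and each array centred on the median of the 3504 bright probes, those at least 3 noise units above background on 10 arrays, all but preimmune replicates 2 and 6. Its cut-offs were set after the data had been seen.

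Many kinase transcripts were called higher in Staufen2 immunoprecipitates, among them Camk2b, Mapk8ip1 and Prkcz, and 1, Map2k2, was called lower. Of the 94 genes 73 could be tested, of which 33 were higher, 1 was lower and 39 were not called (limma, Benjamini-Hochberg adjusted p under 0.05). That is 45.2% higher and 1.37% lower, where 31.3% and 14.5% of all tested probes were called higher and lower. Their median log2 difference was 0.31, against 0.080 over all tested probes. A gene could pass the filter through the Staufen2 arrays alone, and 10 of the 73 did so without detection on any preimmune array, so that these shares describe the genes measured and are no support for the set. On signal over background 29 genes could be measured, of which 13 were higher, 5 lower and 11 not called. Over all bright probes 25.8% were higher and 42.5% lower, and the medians were 0.34 for the kinase genes and -0.35 for all bright probes. The 6 genes higher on both scales were Camk2b, Mapk8ip1, Prkcz, Prkaca, Mapk6 and Map2k3, and Map2k2 was lower on both, although not with median centring or without scaling.

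Many of the calls rest on preimmune signals at background. Of the 33 genes called higher, 9 were detected on no preimmune array, 12 on 1 to 3 and 12 on 4 or more. With arrays centred on their medians in place of quantile normalization 20 of the 33 stayed higher, 2 were not called and 11 were called lower, and all 11 were detected on fewer than 4 preimmune arrays. Averaging the closest pairs of arrays left 20 of the 33 and ended the calls of Mapk6 (0.88, adjusted p = 0.0515), Map2k3 (1.03, adjusted p = 0.0599) and Prkaca (2.01, adjusted p = 0.0782), among others, and the second run of column codes alone, with 2 arrays per group, left 0 calls on the array (limma; 3041 probes at an unadjusted p under 0.05). Without scaling all 73 were called higher, as were 8904 of the 9136 tested probes, whose median difference was then 1.64. Within the first and second code runs the normalized differences were 2.21 and 1.71 for Camk2b, 1.63 and 3.78 for Mapk8ip1, 1.82 and 3.29 for Prkcz, 1.38 and 3.31 for Prkaca, 0.69 and 1.26 for Mapk6 and 1.10 and 0.89 for Map2k3. Mean raw signals of all 94 genes were higher after Staufen2, so that a call of lower is measured against the other probes of the array. For 81 of the 94 genes every raw Staufen2 value lay above every preimmune value, as for 48.2% of all probes. These shares have unlike bases, since 77.7% of the 94 genes passed the detection filter, against 41.1% of all probes. Across the 73 tested genes the log2 difference and the mean Staufen2 signal had a Spearman correlation of 0.46, against 0.42 across all tested probes. On signal over background it was 0.58 across the bright kinase genes and 0.67 across all bright probes. These are descriptions across genes measured on the same arrays.

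**Figure D1:**
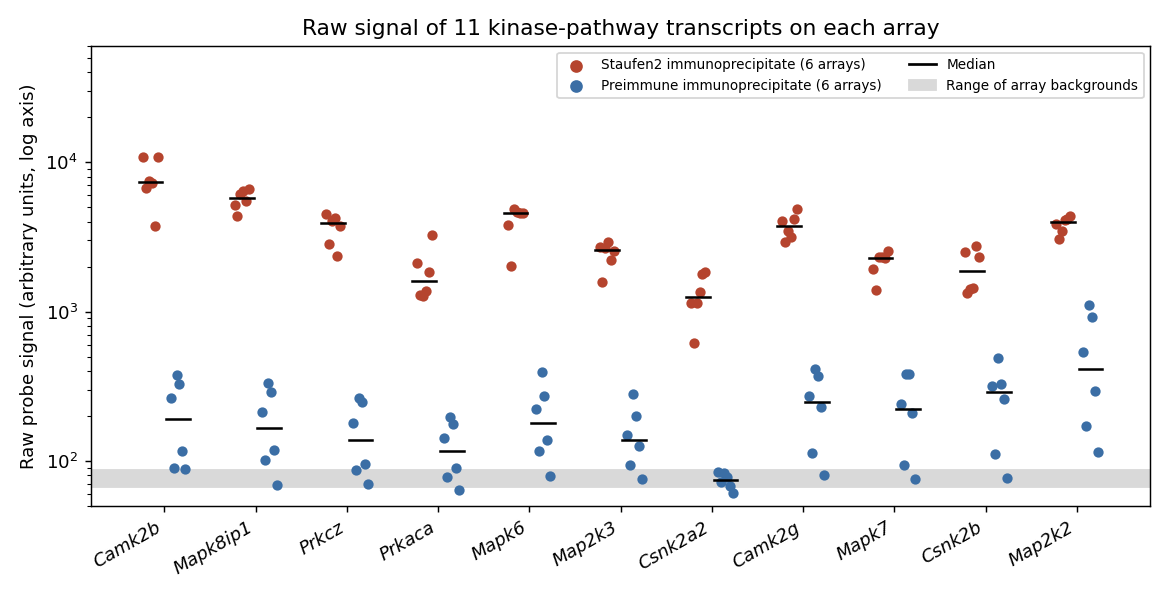
Raw probe signal (log axis) of 11 transcripts on the 6 Staufen2 arrays (red) and the 6 preimmune arrays (blue), with black bars at the medians and the range of array backgrounds in grey. Signals of all 11 lie higher on every Staufen2 array, and the preimmune signals of Csnk2a2, all at most 83.9, lie at background.

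**Figure D2:**
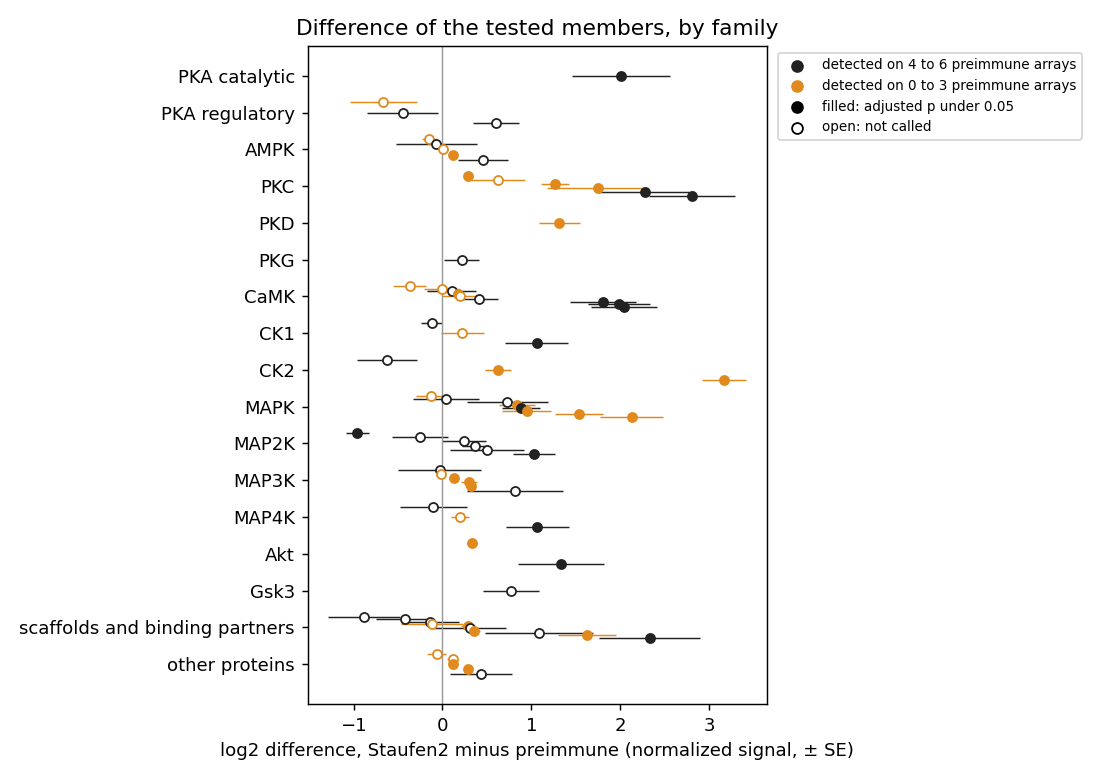
Normalized log2 difference, Staufen2 minus preimmune, with its SE, for the 73 tested genes in rows by family. Filled points passed the test, and black points were detected on at least 4 preimmune arrays. Map2k2 at -0.96 is the single filled point below 0, a direction that turns with median centring and without scaling, and Csnk2a2 at 3.17, in orange, has preimmune signals at background, so that its place is no measured fold.

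Among protein kinase A transcripts the catalytic subunit Prkaca was higher in Staufen2 immunoprecipitates and the regulatory subunits, which hold it inactive until cyclic AMP binds, were not called. Prkacb, a catalytic subunit outside the rule, was also called higher and is given with the paralogs. Raw signals of Prkaca, the alpha catalytic subunit, were 1269, 1605 and 3264 (lowest, median and highest of the Staufen2 arrays) against 63.9, 116 and 198 (the same over the preimmune arrays). The groups did not overlap, and the normalized log2 difference came to 2.01 ± 0.55 (± SE over 6 and 6 arrays; limma, adjusted p = 0.00916). It was 1.29 ± 0.26 on signal over background (adjusted p = 0.000683). In the first run of column codes it missed the threshold (1.38, adjusted p = 0.0837). Prkar2b, the regulatory subunit prominent in brain, had raw signals of 1928, 2147 and 3735 against 84.0, 172 and 292, which give 0.60 ± 0.26 (adjusted p = 0.0726) after normalization and 0.81 ± 0.24 on signal over background, where it passed (adjusted p = 0.00898). The ubiquitous Prkar1a had -0.45 ± 0.40 (adjusted p = 0.373) and -0.54 ± 0.32 (adjusted p = 0.145). Prkar2a stayed at raw signals of at most 120.3 and had -0.67 ± 0.38 (adjusted p = 0.161).

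AMP-activated kinase, a sensor of cellular energy built from an alpha catalytic, a beta linking and a gamma nucleotide-binding subunit, was near background apart from the gamma subunits Prkag1 and Prkag2. Of its 6 genes 5 were tested and 1, Prkab2, was called higher, at 0.11 ± 0.025 (adjusted p = 0.00237), and with median centring it was called lower (-0.54, adjusted p = 6.2e-07). It was detected on no preimmune array and its raw Staufen2 signals reached only 133, so no fold can be given. Neither catalytic subunit was called, Prkaa1 at -0.15 ± 0.085 (adjusted p = 0.162) and Prkaa2 at 0.0014 ± 0.056 (adjusted p = 0.985). Prkag2 had raw signals of 809.6, 1234 and 1495 against 74.4, 125 and 205, and Prkag1 of 371, 495 and 654 against 65.3, 120.4 and 145. The third gamma gene, Prkag3, was not detected on a Staufen2 array by its own probe, while a probe under a locus name and outside the rule was detected on all 12 arrays at raw signals of 110.4, 118 and 123 against 91.5, 101 and 119.7, and was called lower (-2.18 ± 0.69, adjusted p = 0.0195, and -2.89 on signal over background). Its raw groups overlapped. Of Prkag1 and Prkag2 neither was called after normalization (0.46 for Prkag2 and -0.071 for Prkag1), and on signal over background Prkag2 was higher (0.56 ± 0.22, adjusted p = 0.0381) and Prkag1 lower (-0.52 ± 0.22, adjusted p = 0.0487).

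Of the 8 protein kinase C genes 6 were tested, 5 were higher and none lower, but with median centring Prkcd turned (-0.33). Its classes differ in what activates them: calcium and diacylglycerol for conventional members such as Prkca and Prkcb, diacylglycerol alone for Prkcd, Prkce, Prkch and Prkcq, and neither for the atypical Prkcz. Prkcb had raw signals of 1359, 3469 and 4212 against 73.7, 110.2 and 175, without overlap, and a difference of 2.81 ± 0.49 (± SE, 6 arrays each; adjusted p = 0.000485), with 4 of 6 preimmune arrays detecting it. Prkca was detected on 5 Staufen2 and 0 preimmune arrays and was not tested. Prkcz had 2343, 3894 and 4477 against 69.9, 138 and 265, again without overlap, and 2.28 ± 0.55 (adjusted p = 0.00435) after normalization and 1.74 ± 0.32 on signal over background (adjusted p = 0.000329).

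Among the kinases that need no calcium, Prkce, which is enriched in nervous tissue, had raw signals of 564, 1410.5 and 2248 against 65.9, 107 and 183. Its difference of 1.75 ± 0.57 (adjusted p = 0.0226) was no longer called without preimmune replicate 2 (1.52, adjusted p = 0.0504), without preimmune replicates 2 and 6 (1.11, adjusted p = 0.0745) and in the first code run (1.34, adjusted p = 0.0536). Prkcq was at 1.26 ± 0.15 (adjusted p = 3.7e-05) with 1 preimmune array detecting it, and Prkcd at 0.28 ± 0.044 (adjusted p = 0.000225) with none. Prkch had 0.62 ± 0.30 and was not called (adjusted p = 0.107), but passed without preimmune replicate 6 (0.87, adjusted p = 0.00610), without preimmune replicates 2 and 6 (0.83, adjusted p = 0.00854), in the first code run (0.86, adjusted p = 0.00346), with array weights (0.76, adjusted p = 0.000200) and with median centring (0.55, adjusted p = 0.0134). Of the related protein kinase D genes, which act downstream of diacylglycerol and protein kinase C, Prkd3 was higher at 1.32 ± 0.23 (adjusted p = 0.000490), with raw signals of 183, 479.9 and 683 against 66.5, 78.3 and 84.0, the latter at background. Prkd1 was detected on 4 Staufen2 arrays and not tested. The cyclic GMP-dependent kinase Prkg2 was at 0.22 ± 0.19 and not called (adjusted p = 0.375). Neither probe of Prkg1 reached the detection filter.

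Calmodulin-dependent kinases differed within the family. Of 11 genes 9 were tested, 4 were higher and none lower, but Camkk2 turned with median centring (-0.46). Camk2b, the beta subunit of the synaptic kinase CaMKII, had raw signals of 3739, 7386 and 10910.1 against 87.8, 191 and 376. The groups did not overlap, although Staufen2 replicate 4, at 3739, was the lowest of its group. The difference was 2.04 ± 0.37 (± SE, 6 arrays each; adjusted p = 0.000693) and 2.08 ± 0.34 on signal over background (adjusted p = 0.000138). Camk2g, the gamma subunit, had 2929, 3744 and 4859 against 80.8, 249.9 and 410.2, a difference of 0.41 ± 0.21 that was not called (adjusted p = 0.131) and 0.53 ± 0.17 on signal over background (adjusted p = 0.0135). It also passed without preimmune replicate 5 (0.54, adjusted p = 0.0298). Camk2d was dim, at 166, 180.5 and 232 against 67.8, 82.3 and 91.8, with a difference of -0.0024 ± 0.20 (adjusted p = 0.993). Camk2a, whose mRNA is known to enter dendrites, was detected on 4 Staufen2 arrays and 1 preimmune array, at raw signals of 85.5, 99.3 and 131 against 64.8, 79.0 and 81.6, and was not tested in this embryonic tissue. The CaMKII inhibitor Camk2n1 was bright in both groups, at 1896, 3050.2 and 4228 against 81.4, 235 and 488, and was not called on either scale (0.11 ± 0.28, adjusted p = 0.766, and 0.34 ± 0.29, adjusted p = 0.311). Its relative Camk2n2 was dim and not called (-0.37 ± 0.18, adjusted p = 0.115).

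Outside CaMKII, the upstream kinase Camkk1, which activates calmodulin-dependent kinases 1 and 4, and Camk1g, a membrane-anchored form of the first, were higher. Camkk1 had raw signals of 834, 1037 and 1406 against 68.4, 95.1 and 129 and a difference of 1.99 ± 0.35 (adjusted p = 0.000517). Camk1g had 598, 952 and 1879 against 65.5, 98.0 and 122 and 1.81 ± 0.37 (adjusted p = 0.00165). Neither pair of groups overlapped, and 4 of 6 preimmune arrays detected each. Their relatives were dim: Camkk2 was detected on no preimmune array, with raw Staufen2 signals of at most 149 and a difference of 0.17 ± 0.033 (adjusted p = 0.00100), and Camk1 was not called (0.20 ± 0.21, adjusted p = 0.446).

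Calls differed among the casein kinase CK2 genes, and Csnk2b was not contrasted with a catalytic subunit. Casein kinase CK2 is a tetramer of catalytic subunits, Csnk2a1 or Csnk2a2, and a regulatory dimer of Csnk2b. Csnk2a2 had raw signals of 612, 1244 and 1849 after Staufen2 and 61.3, 75.1 and 83.9 after preimmune immunoprecipitation, where 1 array detected it. Its fitted difference of 3.17 ± 0.25 (adjusted p = 2.3e-06) has background on its preimmune side, so that it is not a measured fold. Csnk2a1 was at 105, 295 and 424 against 64.1, 78.8 and 91.0 and 0.62 ± 0.14 (adjusted p = 0.00363), and at 0.10, adjusted p = 0.532 with median centring. Csnk2b was bright in both groups, at 1339.7, 1881 and 2738 against 77.3, 288 and 487. It had -0.62 ± 0.33 after normalization (adjusted p = 0.141) and was lower on signal over background, at -0.65 ± 0.21 (adjusted p = 0.0158).

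Of 5 genes of casein kinase CK1, whose members act in Wnt signalling and the circadian clock, 3 were tested. Csnk1d was higher at 1.06 ± 0.36 (adjusted p = 0.0265), with raw signals of 168, 425 and 1281 against 65.0, 82.7 and 99.2. It fell short in the first code run (0.65, adjusted p = 0.0551), without preimmune replicate 2 (1.00, adjusted p = 0.0528) and without preimmune replicates 2 and 6 (0.88, adjusted p = 0.0677). Csnk1g2 and Csnk1g3 were not called, at 0.22 ± 0.24 and -0.12 ± 0.12.

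In the mitogen-activated kinase cascade the terminal kinases had 5 genes higher of 8 tested, and none lower. Mapk3, a classical ERK, had raw signals of 446, 861 and 2122 against 65.5, 85.3 and 116 and a difference of 2.13 ± 0.35 (± SE, 6 arrays each; adjusted p = 0.000354). It was detected on 3 preimmune arrays, and its groups did not overlap. Mapk6, an atypical ERK, was bright, at 2010.3, 4569.6 and 4894 against 79.5, 180.1 and 397, and was higher on both scales (0.88 ± 0.22, adjusted p = 0.00498, and 1.17 ± 0.20, adjusted p = 0.000194). Mapk7, the ERK that Map2k5 activates, was detected on all 12 arrays, at 1387, 2298 and 2554 against 75.8, 224 and 385, and was called on neither (0.038 ± 0.37, adjusted p = 0.939, and -0.19 ± 0.17, adjusted p = 0.337).

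Of the JNK genes, the stress-activated kinases that also shape axons and dendrites, the neuronal Mapk10 was higher at 1.54 ± 0.27 (adjusted p = 0.000540), with raw signals of 312, 601 and 963 against 63.1, 84.9 and 97.3. Only 3 preimmune arrays detected Mapk10. Mapk9 was detected on all 6 Staufen2 and no preimmune arrays, at 150.3, 279.6 and 591 against 61.3, 76.0 and 85.2. On the quantile-normalized scale alone its fold was at least 1.59, the Staufen2 mean over the lowest detectable preimmune level (adjusted p = 0.00489). With median centring Mapk9 was not called (0.30, adjusted p = 0.189). Mapk8 was detected on 5 Staufen2 arrays and not tested. The p38 genes Mapk14 and Mapk12 were at 0.73 ± 0.46 (adjusted p = 0.203) and -0.12 ± 0.18 (adjusted p = 0.576), and Mapk13 was detected on no Staufen2 array.

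Of the 6 MAP2K genes, the middle step, 5 were well above background, and Map2k5, the other one, was not called (-0.26 ± 0.32, adjusted p = 0.520). Map2k2, which phosphorylates the ERKs, was the gene called lower. Its raw signals were 3039, 3962 and 4376 against 114, 415 and 1099, higher after Staufen2 on every array, but relative to the rest of the array it was at -0.96 ± 0.13 (adjusted p = 8.8e-05) and at -0.65 ± 0.18 on signal over background (adjusted p = 0.00489). It was at 1.06, adjusted p = 0.0547 with median centring and 3.31, adjusted p = 2.4e-06 without scaling. Its paralog Map2k1 was at 0.50 ± 0.42 (adjusted p = 0.340) and 0.23 ± 0.18 (adjusted p = 0.282), with raw signals of 492, 813 and 1375 against 72.1, 117 and 159. Map2k3, an activator of p38, was higher on both scales (1.03 ± 0.23, adjusted p = 0.00305, and 1.08 ± 0.20, adjusted p = 0.000383), with 1579, 2596 and 2933 against 75.6, 139 and 279.9. Map2k6, which shares that substrate, and Map2k4, which activates JNK, were not called after normalization (0.24 ± 0.25, adjusted p = 0.446, and 0.36 ± 0.15, adjusted p = 0.0545) and were higher on signal over background (0.41 ± 0.15, adjusted p = 0.0256, and 0.70 ± 0.17, adjusted p = 0.00256).

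Upstream kinases of the cascade were mostly dim. Of 11 MAP3K genes 6 were tested and 3, Map3k1, Map3k3 and Map3k10, were called higher by small amounts, 0.32 ± 0.040, 0.30 ± 0.091 and 0.13 ± 0.048. They were detected on 0, 2 and 1 preimmune arrays and all were called lower with median centring. The Map3k10 call, at an adjusted p of 0.0422, ended without each of preimmune replicates 1, 2, 4 and 5 and Staufen2 replicates 0, 1, 2 and 3, at 0.11 to 0.15 over the 12 arrays left out in turn. Map3k12, a kinase of axon injury and growth, had 1150.3, 1829.5 and 3030.2 against 75.1, 170.2 and 280.5 and was called on neither scale (0.82 ± 0.54, adjusted p = 0.228, and 0.31 ± 0.19, adjusted p = 0.160). Map3k4 had -0.032 ± 0.47 (adjusted p = 0.959) and Map3k14 -0.012 ± 0.053 (adjusted p = 0.868). Of 4 MAP4K genes Map4k4 was higher at 1.07 ± 0.35 (adjusted p = 0.0246), but not in the first code run (0.62, adjusted p = 0.167), with array weights (0.51, adjusted p = 0.0533), without preimmune replicates 2 and 6 (0.81, adjusted p = 0.0624), or without Staufen2 replicate 4 (0.97, adjusted p = 0.0504) or 5 (0.84, adjusted p = 0.0519). Map4k3 and Map4k1 were not called (-0.10 ± 0.38 and 0.19 ± 0.10), but Map4k3 was lower without preimmune replicates 2 and 6 (-0.64, adjusted p = 0.00448).

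Scaffolds gather the kinases of a cascade, and the JNK scaffold Mapk8ip1, which also binds the motor kinesin, had the second highest signal-over-background difference of the 29 bright genes. Its raw signals were 4388, 5795 and 6589 against 68.8, 166 and 335, without overlap. The difference was 2.33 ± 0.57 (adjusted p = 0.00490) after normalization and 1.90 ± 0.21 on signal over background (adjusted p = 3.8e-06), where Camk2b had 2.08. Its relative Mapk8ip2 was dim, at 108, 164 and 299 against 62.5, 73.4 and 85.2, and was called higher (0.28 ± 0.078, adjusted p = 0.00986) but lower with median centring. Lamtor3, a scaffold of Map2k1 and Mapk3 on late endosomes, was at 1.08 ± 0.61 (adjusted p = 0.159) and passed on signal over background (0.56 ± 0.16, adjusted p = 0.00708). Of the partners of the kinase Map3k7, Tab1 was detected on no preimmune array (0.35 ± 0.073, adjusted p = 0.00172, turned with median centring) and Tab2 was not called (0.31 ± 0.41, adjusted p = 0.549).

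Other binding partners differed in sign. Thap12, a zinc finger protein linked to the kinase Eif2ak2, was higher at 1.63 ± 0.33 (adjusted p = 0.00146), with 339, 779.7 and 1106 against 71.7, 85.2 and 118. Prkra, an activator of Eif2ak2 that itself binds double-stranded RNA, was bright, at 1155, 1597 and 1774 against 75.7, 227 and 365. It was not called after normalization (-0.42 ± 0.32, adjusted p = 0.301) and lower on signal over background (-0.56 ± 0.16, adjusted p = 0.00665). The chromatin reader Zmynd8 had the lowest signal-over-background difference of the 29 genes, -1.21 ± 0.26 (adjusted p = 0.00105), at 220.2, 306 and 433 against 74.2, 109 and 147, and -0.88 ± 0.40 after normalization (adjusted p = 0.0903). Pick1, which binds protein kinase C alpha and glutamate receptors, was called on neither scale (-0.14 ± 0.33 and 0.27 ± 0.21). Of the other proteins, Eif2ak2, the kinase that double-stranded RNA activates, and Wnk4, a regulator of ion transport, were called higher (lower with median centring) at 0.12 ± 0.032 (adjusted p = 0.00812) and 0.29 ± 0.045 (adjusted p = 0.000222) without detection on any preimmune array. Wnk1 and the protein kinase C-related Pkn2 were not called (0.11 ± 0.064, adjusted p = 0.158, and -0.065 ± 0.11, adjusted p = 0.629), nor was Cavin3, a caveolar coat protein (-0.12 ± 0.35, adjusted p = 0.799). Prkcsh, which is a subunit of a glucosidase and no kinase, was not called (0.43 ± 0.35, adjusted p = 0.326).

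Akt, which relays growth factor signals from phosphoinositide 3-kinase, and Gsk3, which it inhibits, had few measured genes. Akt1, which was not among the bright ones, had raw signals of 505, 1015 and 1766 against 73.0, 94.4 and 203 and a difference of 1.34 ± 0.48 (adjusted p = 0.0361). It did not pass in the first code run (1.07, adjusted p = 0.188), without preimmune replicates 2 and 6 (0.91, adjusted p = 0.0939), without a detection filter, without any one of preimmune replicates 1, 2 and 5 and Staufen2 replicates 0, 2, 3 and 5, or with array weights (0.66, adjusted p = 0.0863), with 1.05 to 1.63 over the 12 arrays left out in turn. Akt2 was detected on no preimmune array. Its fold was at least 1.05 on the quantile-normalized scale alone (adjusted p = 0.000638), and it was called lower with median centring (-0.26, adjusted p = 0.00382). Gsk3b had 1779, 2839 and 3217 against 75.3, 164 and 363, 0.77 ± 0.32 after normalization (adjusted p = 0.0612) and 0.76 ± 0.27 on signal over background (adjusted p = 0.0237). Gsk3a was detected on 1 Staufen2 array.

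**Figure D3:**
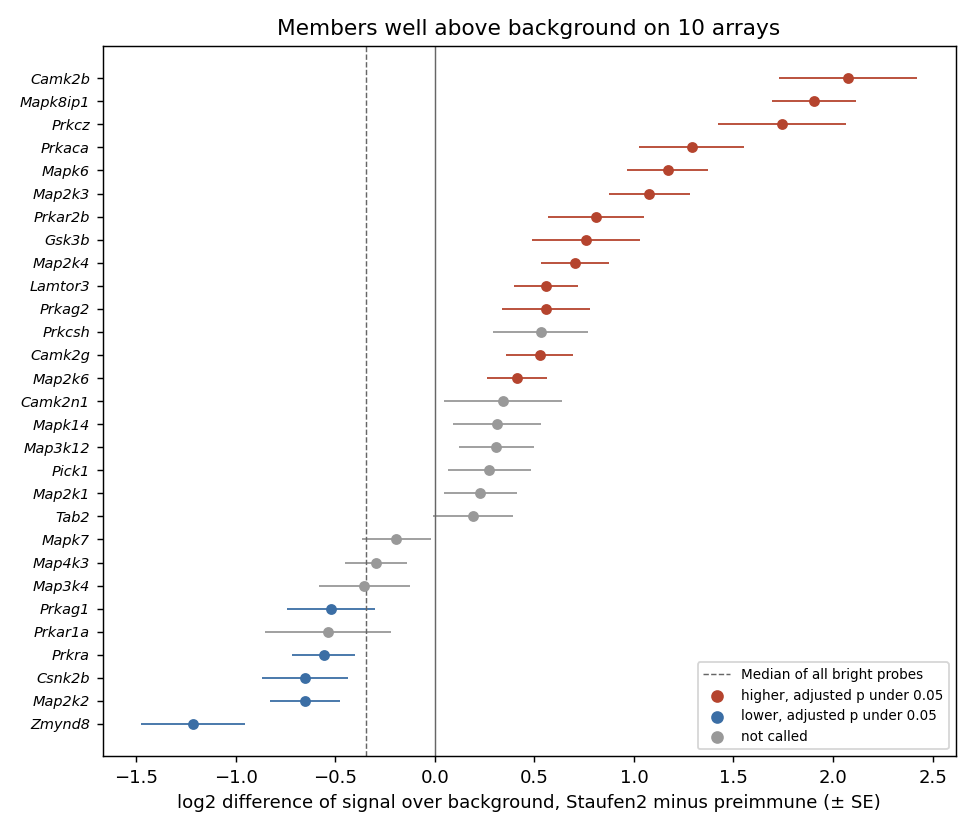
Difference of signal over background, Staufen2 minus preimmune on the log2 scale with its SE, for the 29 genes well above background, in order. Red points passed the test as higher (13), blue as lower (5), and the dashed line marks the median of all bright probes at -0.35. Camk2b (2.08), Mapk8ip1 (1.90) and Prkcz (1.74) stand at the top and Zmynd8 (-1.21) at the bottom.

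The differences of paralogs were compared within each array. This leaves out a shift equal for all probes of an array, but not one that varies with signal. For 35 pairs, the log2 difference between the probes of 2 genes was compared between groups by an exact permutation test, two-sided, which over 12 arrays gives no p below 0.00216. Of these pairs 13 passed after Benjamini-Hochberg adjustment over the 35. The count was 28 with median centring and 29 without scaling, and how often pairs of unrelated probes pass was not tested. In 28 of the 35 pairs a gene was detected on fewer than 4 preimmune arrays, so that the contrast takes in a signal at background. The other 7 include the 6 pairs with both genes bright, which were tested again on 10 arrays on signal over background.

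Camk2b exceeded Camk2g in its response. The within-array difference ran from -0.15 to 1.50 after Staufen2 and from -1.95 to 0.54 after preimmune immunoprecipitation, with overlap from Staufen2 replicate 4. The contrast was 1.63 ± 0.48 (SE; exact permutation test, p = 0.00649, adjusted p = 0.0189) and 1.55 ± 0.47 on signal over background (exact, p = 0.0143, adjusted p = 0.0214). Map2k1 exceeded Map2k2 by 1.46 ± 0.43 (exact permutation test, p = 0.00216, adjusted p = 0.00842), without overlap, and by 0.88 ± 0.26 on signal over background (exact, p = 0.00952, adjusted p = 0.0214). With median centring the Map2k1 minus Map2k2 contrast was 0.37, p = 0.379 and without scaling -0.43, p = 0.281 (exact permutation test). Map2k3 exceeded Map2k6 by 0.79 ± 0.23 (exact permutation test, p = 0.00433, adjusted p = 0.0138) and by 0.66 ± 0.19 (exact, p = 0.00476, adjusted p = 0.0214).

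The subunits of cyclic AMP- and AMP-activated kinases gave less settled contrasts. Prkacb had raw signals of 12706, 16961 and 20437 against 118, 579 and 1099.6. It was called higher, at 1.02 ± 0.098 (limma, adjusted p = 7.5e-06), 1.26 ± 0.15 on signal over background (adjusted p = 9.0e-06) and 2.97 with median centring (adjusted p = 3.7e-05). Prkaca and Prkacb differed by 0.99 ± 0.62 (exact permutation test, p = 0.171, adjusted p = 0.272) and by 0.028 ± 0.29 on signal over background (exact, p = 0.895, adjusted p = 0.895). So no difference between the catalytic subunits was detectable on these scales, while without scaling the contrast was -1.33, p = 0.00216 (exact). The Prkar1a minus Prkar2b contrast was -1.05 ± 0.51 (exact permutation test, p = 0.0801, adjusted p = 0.148) and -1.35 ± 0.50 (exact, p = 0.0571, adjusted p = 0.0686). Its unadjusted exact permutation p passed without preimmune replicate 6 (-1.30, p = 0.0325), without Staufen2 replicate 5 (-1.31, p = 0.0281), in the first code run (-1.57, p = 0.0286), with median centring (-1.38, p = 0.0195) and without scaling (-1.29, p = 0.00433). Prkag1 minus Prkag2 gave -0.53 ± 0.52 (exact permutation test, p = 0.355, adjusted p = 0.428), and -1.08 ± 0.40 on signal over background, where it passed (exact, p = 0.0143, adjusted p = 0.0214). Its unadjusted exact p also passed without preimmune replicates 2 and 6 (-1.14, p = 0.0238), with median centring (-1.16, p = 0.00216) and without scaling (-1.05, p = 0.00216), and leaving out 1 array moved the contrast between -0.79 and -0.15. Among pairs with a dim gene, the contrast was -2.55 ± 0.081 for Csnk2a1 minus Csnk2a2 and, for Camkk1 minus Camkk2, 1.82 ± 0.31, each without overlap (exact permutation test, p = 0.00216, adjusted p = 0.00842 in each). Preimmune signals of Csnk2a1, Csnk2a2 and Camkk2 were at or near background, so these are not contrasts of enrichment.

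**Figure D4:**
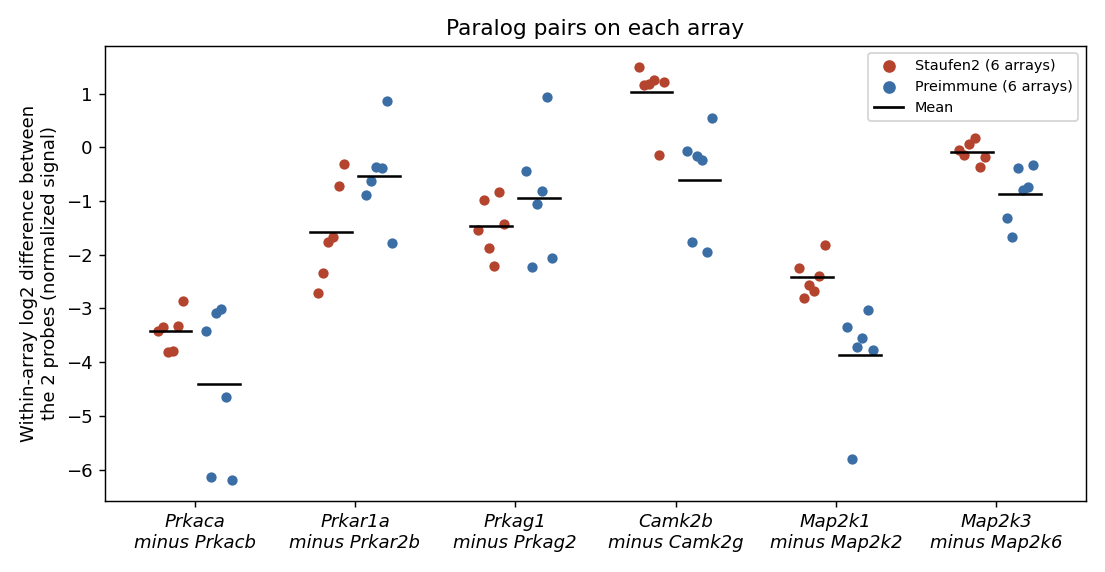
Within-array log2 difference between the probes of 2 paralogs for the 6 pairs with both genes bright, on the 6 Staufen2 (red) and 6 preimmune (blue) arrays, with black bars at the means. Map2k1 minus Map2k2 is the pair whose groups do not overlap, at -2.80 to -1.81 against -5.81 to -3.03.

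The genes around these kinases were read from the same fit, in which 31.3% of all tested probes were called higher and 14.5% lower, and on signal over background 25.8% and 42.5% of bright ones. Among the genes of calmodulin, the calcium sensor of the calmodulin-dependent kinases, Calm3 was higher (1.81 ± 0.14, adjusted p = 2.3e-06) and Calm2 was lower (-0.58 ± 0.10, adjusted p = 0.000635; 0.52, adjusted p = 0.376, with median centring). The signs were the same on signal over background (2.11 and -1.16). Raw signals of Calm2 were 12617, 15907 and 20774 against 388, 2507 and 5006, and those of Calm3 8727, 10232 and 12199 against 90.7, 229 and 434. Of 9 tested genes of calmodulin and its or protein kinase C's substrates 5 were higher and 3 lower, and of 6 bright genes 3 were higher and 3 lower on signal over background. With median centring 1 of the 5 higher and all 3 lower were not called. Add2, an adductin of the membrane skeleton, was higher (2.32 ± 0.32, adjusted p = 8.4e-05), while Pcp4, a calmodulin-binding peptide, and Gap43, a growth cone protein, were lower (-2.38 ± 0.44, adjusted p = 0.000747, and -0.68 ± 0.16, adjusted p = 0.00481; with median centring -0.56 and 0.94, neither called).

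Of 22 listed anchors and inhibitors of protein kinase A and effectors of cyclic AMP, 21 were on the array and 8 were tested. Of these 4 were higher and 2 lower. With median centring 2 of the 4 higher, Akap1 and Crem, were called lower, and of 3 bright genes 1 was higher and 1 lower on signal over background. The inhibitors Pkig and Pkia were higher (2.04 ± 0.39, adjusted p = 0.000999, and 2.05 ± 0.40, adjusted p = 0.00113), Pkig with raw signals of 5291, 7754 and 10969.5 against 74.4, 188 and 509. Pkia was detected on 1 preimmune array, with raw preimmune signals of 67.1 to 94.4, near background, so its difference is no measured fold. The anchor Akap13 was lower at -2.37 ± 0.67 (adjusted p = 0.0110), at raw signals of only 115, 128 and 136 against 96.9, 106 and 116. Of 21 tested Ras, ERK and stress kinase partners 5 were higher and 2 lower, and of 8 bright genes 4 were higher and 2 lower on signal over background. Mapkapk5, a kinase downstream of p38, was lower (-0.64 ± 0.22, adjusted p = 0.0306) but higher with median centring (1.09, adjusted p = 0.00973). Those called higher include the small GTPases Rap1b and Nras (1.43 ± 0.19, adjusted p = 6.3e-05, and 1.24 ± 0.28, adjusted p = 0.00306) and the p38 substrate kinase Mapkapk2 (1.31 ± 0.33, adjusted p = 0.00616). Of 13 phosphoinositide 3-kinase and mTOR partners 8 were higher and 1 lower, and of 6 bright genes 2 were higher and 2 lower on signal over background. With median centring 1 of the 8 higher was called lower and 3 were not called. Mlst8, a subunit of the mTOR complexes, led at 3.12 ± 0.51 (adjusted p = 0.000309) and 2.56 on signal over background, and Pdpk1, which activates Akt and protein kinase C, was at 0.95 ± 0.24 (adjusted p = 0.00631). Ilk, the integrin-linked kinase, was lower (-2.36 ± 0.37, adjusted p = 0.000254). Of 4 Wnt partners of Gsk3 and CK1 Dvl1 was higher (2.11 ± 0.56, adjusted p = 0.00750) and the other 3 were not called.

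The remaining 21 genes did not reach the detection filter, with mean raw Staufen2 signals of 77.3 to 118. Prkag3, Csnk1g1, Map3k6, Map3k8, Map3k11, Map4k2, Mapk13 and Prkdc were detected on none of the Staufen2 arrays by the probes the rule took in. Gsk3a, Map3k5 and Mapk4 were detected on 1, Map3k7 on 3, Camk2a, Camk4, Prkd1 and Prkg1 on 4, and Csnk1a1, Mapk8 and Prkca, among others, on 5. On preimmune arrays Mapk13 was detected on 3 and Prkag3 on 1. For these probes a difference between the immunoprecipitates was not detectable at this signal, which says nothing of their presence in the particles.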

How the data were processed

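RNA from Staufen2 and preimmune immunoprecipitates was measured on Illumina rat bead arrays. Per the file headers the authors deposited, for each probe and array, an intensity (raw signal) with its detection p-value. Detection p-value columns carry codes the labels do not hold. Each was taken with the signal column beside it, and when probes were sorted by signal, 205 to 268 of 22225 steps in its p-values ran the wrong way, against at least 6744 for any other column. The authors' deposited value table holds log2 values, which for all 22226 probes matched the logged raw signal (tolerance 0.0001). The submitters' processing notes name RMA. The array annotation version is not given in the sources used here. Symbols were updated through RefSeq (GRCr8, names only), and 1 probe per gene was used, the one with the highest mean.

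Signals were corrected with limma's normexp (background from detection p-values, offset 16), quantile normalized, and fitted with lmFit and eBayes with an intensity trend (limma 3.58.1, R 4.3.3), two-sided, over 9136 probes. The pipeline was tested on simulated arrays with equal yields in both groups. The real groups differ in signal, and that test does not cover this difference. No 2 arrays held identical values. Depth on an array is signal over background, and the number of arrays limits precision. Named genes were, per family, the 3 highest and 3 lowest called, and paralog sets with differing calls; others were added to account for the remaining members. Members and lists were chosen with earlier results of these data known. Alternatives are given in the closing section. Bead standard errors were not used. Probe and transcript sequences were not used here. Some genes of these families are not reported here.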

Additional observations from a re-analysis of the deposited data

Results flagged for a closer look

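In 12 of the 84 groups of 6 arrays behind the 42 named genes 1 array stood far from the other 5 on the normalized log2 scale, its gap to the nearest taking most of the group's range. Chance gives about 1 in 20. Staufen2 replicate 4 was low for Camk2b (10.80 against 11.89 to 12.36 on the other arrays), Camkk1 (8.36 against 8.90 to 9.15), Prkce (7.70 against 9.15 to 9.86) and Prkab2 (6.06 against 6.11 to 6.14). Staufen2 replicate 5 was high for Mapk3 (9.78 against 8.12 to 8.60) and replicate 0 for Eif2ak2 (6.22 against 6.09 to 6.13). Preimmune replicate 6, the array with the fewest probes detected, was low for Mapk8ip1 (6.09 against 9.25 to 10.18) and Map2k6 (8.95 against 10.14 to 10.63) and high for Prkch (7.77 against 6.15 to 6.51), at raw signals of 68.8, 76.7 and 73.9. Preimmune replicate 2 was high for Camk2d (7.47 against 6.05 to 6.33), and replicate 4 for Prkcq (6.33 against 6.01 to 6.11) and Prkd3 (6.38 against 6.00 to 6.04).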

How the results depend on the processing

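The 33 kinase genes called higher and 1 called lower became 42 and 22 with median centring, 73 and 0 without scaling, 6 and 1 over probes detected on all 12 arrays, 13 and 5 on signal over background (chosen after seeing the data), 20 and 1 with the closest pairs averaged, 37 and 9 with array weights, 32 and 3 in the first code run, 0 and 0 in the second, and 32 and 7 without preimmune replicates 2 and 6. Over all probes the 2860 and 1321 became 3122 and 3784, 8904 and 0, 264 and 970, 903 and 1489, 1615 and 469, 3290 and 2887, 2797 and 1477, 0 and 0 (with 3041 at an unadjusted p under 0.05 in limma) and 2812 and 2362 in the same order. Leaving out 1 array gave 30 to 37 genes higher and 1 to 3 lower, and 2612 to 2948 and 1065 to 1817 probes. Without preimmune replicate 6, 3 genes and 1817 probes were lower, and without preimmune replicate 2, 2 genes. Without background correction, without a detection filter, with the code run as a block and with every tested probe counted, the genes called were 33 and 1, 32 and 1, 35 and 1 and 33 and 1. Equal replicate numbers were not taken as pairs (correlations of deviations from -0.12 to 0.30 over 5 shared numbers, and 4 of 10 arrays correlated best with their own number). Other pairings of the arrays were not examined, so a pairing of the samples remains possible. With the replicate number as a block 32 and 3 genes and 2553 and 1587 probes were called higher and lower. Prkce (1.41, adjusted p = 0.0855), Map4k4 (0.93, adjusted p = 0.0543) and Map3k10 (0.15, adjusted p = 0.0664) were then not called and Prkch was (0.80, adjusted p = 0.0347).

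Median centring turned 11 genes called higher, Akt2 (-0.26), Camkk2 (-0.46), Eif2ak2 (-0.53), Map3k1 (-0.30), Map3k3 (-0.21), Map3k10 (-0.48), Mapk8ip2 (-0.28), Prkab2 (-0.54), Prkcd (-0.33), Tab1 (-0.23) and Wnk4 (-0.34), and Map2k2 (1.06). Among genes not called, Map4k1 passed at -0.24 and Map3k4 and Map4k3 at 0.91 and 1.32. Without scaling Camk2d, Map2k2, Map3k4 and Map4k3 were at 1.20, 3.31, 2.50 and 3.08, and the Prkaca minus Prkacb and Map2k1 minus Map2k2 contrasts at -1.33 and -0.43. The cause of these changes was not tested. The 13 paralog pairs past the threshold became 28 with median centring, 29 without scaling, 13 without background correction and 18 without preimmune replicates 2 and 6, 4 of 6 on signal over background, and 11 to 16 with 1 array left out. In the first code run the smallest exact p is 0.0286, reached without adjustment by Camk2b minus Camk2g, Map2k1 minus Map2k2, Map2k3 minus Map2k6 and Prkar1a minus Prkar2b (1.86, 1.52, 1.08 and -1.57), and the count of pairs after adjustment was not run within the code runs.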
